A study of Mus musculus with 20 samples.

Results

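The spread between arrays of the same group was compared between side population and main population cells of mouse skeletal muscle and bone marrow. All 20 samples of the study, 20 of 20, entered the comparison. They form 4 groups of 5 arrays, one for each tissue and sorted population. All came from adult C57BL/10SnJ mice, an inbred strain with no transgene or treatment stated. Total RNA of each sample was hybridised to 1 expression array. The labels do not say whether the 5 samples of a group were separate animals, pools or sorts. The p-values below are therefore limited to how these samples varied, and that variation can be technical in part.

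A side population (SP) is the small fraction of cells that stays dim after staining with the DNA-binding dye Hoechst, since ABC transporter pumps, chiefly Abcg2, export it. In bone marrow this gate is known to hold blood stem cells. In muscle it is known to hold endothelial and other vascular cells together with some leukocytes. The main population (MP) keeps the dye and makes up most of the tissue's cells. A rare gate yields little RNA, and a few cells of another type can then make up a visible share of it. In a bulk sample, fewer cells of a type and less RNA per cell cannot be told apart.

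The labels were set against defining markers. Cdh5, the adhesion molecule of endothelial junctions, lay between 14.01 and 14.86 on the log2 scale on the muscle SP arrays and between 14.25 and 14.58 on the muscle MP arrays, so it did not separate the gates. Procr, a receptor used to isolate blood stem cells, lay between 11.94 and 12.81 on the bone marrow SP arrays and between 8.62 and 9.21 on the bone marrow MP arrays. The satellite cell markers Myf5, Calcr and Fgfr4 had medians of 11.05, 10.66 and 10.55 on the muscle MP arrays, and were at the floor on all 10 bone marrow arrays. The floor is the lowest value kept here, 105 signal units or 6.71 on the log2 scale. Abcg2 itself read 14.13, 14.07, 13.96, 14.71 and 15.00 on muscle SP arrays 1 to 5, against 13.38 to 13.74 in muscle MP. On bone marrow SP arrays 1 to 5 it read 11.08, 12.11, 11.71, 12.71 and 12.40, against 9.68 to 9.92 in bone marrow MP. No SP array overlapped its MP group for the pump.

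The question was whether the 5 arrays of an SP group differed more among themselves than the 5 of the matching MP group, and in which genes. For each of 10310 probe sets that passed the filter on dim signal, the standard deviation of the log2 values was taken over the 5 arrays of a group. The median of this within-group SD was 0.400 in muscle SP and 0.281 in muscle MP. It was 0.414 in bone marrow SP and 0.292 in bone marrow MP. In muscle 70.6% of the probe sets had the larger variance in SP and 28.4% in MP, and the median SP variance was 2.01 times the MP variance. In bone marrow the shares were 68.5% and 29.9%, and the median ratio was 1.92. An SD above 1 log2 unit was reached by 333 probe sets in muscle SP and 31 in muscle MP. In bone marrow 290 and 51 reached it.

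**Figure D1:**
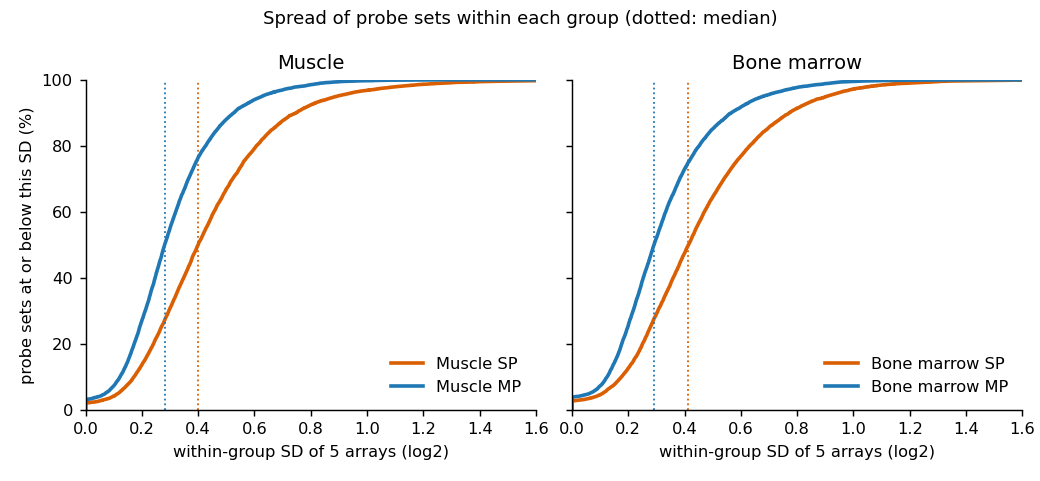
Cumulative share of the 10310 probe sets (vertical axis, percent) at or below a given within-group SD of 5 arrays (horizontal axis, log2), for muscle on the left and bone marrow on the right. Both SP curves (orange) lie to the right of the MP curves (blue), with medians of 0.400 against 0.281 and 0.414 against 0.292 (dotted lines).

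The larger SP spread was seen at all signal levels. With the probe sets ordered by mean signal and cut into 4 equal bins, the share with the larger SP variance ran from 64.5% to 74.4% in muscle and from 59.9% to 75.9% in bone marrow, lowest in the dimmest bin in both tissues. Among the 6841 probe sets above the floor on all 20 arrays, which the floor could not flatten, the shares were 72.7% and 71.7%.

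Each array was then given 1 value, its distance from its own group, as the root mean square difference from the mean of the other 4 arrays over all probe sets. For muscle SP arrays 1 to 5 the distances were 0.749, 0.411, 0.597, 0.488 and 0.535, and for muscle MP they were 0.426, 0.414, 0.355, 0.369 and 0.400. Muscle SP 2 lay within the MP range and the other 4 SP arrays lay above it. The means were 0.556 ± 0.127 (SD, n = 5) and 0.393 ± 0.030, and an exact two-sided permutation test over the 252 splits of the 10 arrays gave p = 0.0238, also after adjustment over both tissues. For bone marrow SP arrays 1 to 5 the distances were 0.692, 0.470, 0.458, 0.597 and 0.616, and for bone marrow MP they were 0.396, 0.451, 0.400, 0.408 and 0.433. All 5 SP arrays lay above all 5 MP arrays. The means were 0.567 ± 0.10 and 0.418 ± 0.023, with an exact p of 0.00794, the smallest that 5 against 5 allows, and 0.0159 after adjustment. Arrays of a group share their reference in this measure, so their distances are not fully independent. The tests missed the threshold without muscle MP 3 (difference 0.137, exact p = 0.0714), without muscle MP 4 (0.142, exact p = 0.0714), and without bone marrow MP 1 (0.129, exact p = 0.0794), MP 3 (0.13, exact p = 0.0714) or MP 4 (0.132, exact p = 0.0556). A group of 4 has a reference of 3 arrays, which by construction raises its distances.

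**Figure D2:**
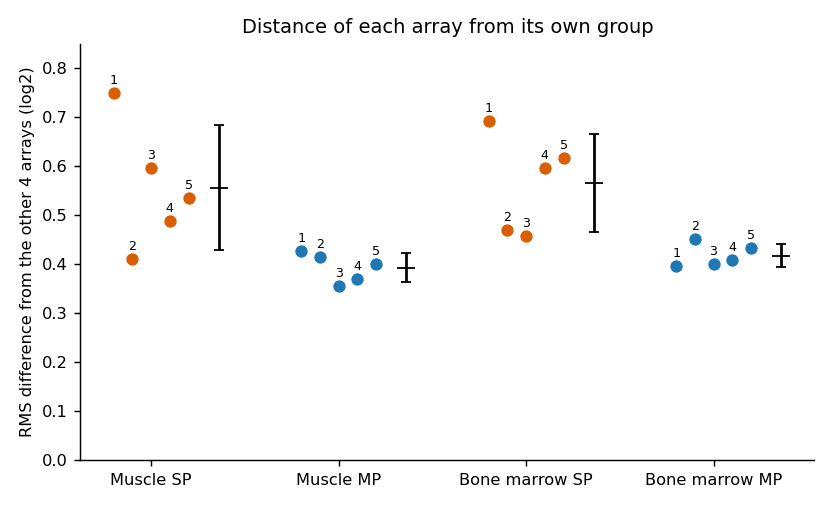
Distance of each array from the mean of the other 4 arrays of its group (vertical axis, root mean square difference on the log2 scale) for the 4 groups; digits are array numbers, and bars give the mean and SD of 5 arrays. Array 1 is the farthest in both SP groups, at 0.749 in muscle and 0.692 in bone marrow, and the MP arrays lie between 0.355 and 0.451.

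Array 1 stood apart in both SP groups. Muscle SP 1 carried 34.8% of the summed squared deviations of its group and bone marrow SP 1 carried 29.1%; in the MP groups no array carried more than 23.5%. Without muscle SP 1 the muscle distance difference was 0.113 with an exact p of 0.00794. The share of probe sets with the larger SP variance was then 56.4%, and the median log2 variance ratio was 0.337 in place of 1.00. Without bone marrow SP 1 the difference was 0.126 with an exact p of 0.00794, the share was 60.8% and the median log2 ratio was 0.58 in place of 0.94. Without arrays 4 and 5 of both SP groups the shares were 63.6% and 54.2%. Both ways of leaving out arrays were chosen after their values were seen. Leaving out the farthest SP array lowers the SP variance by construction, and in neither way was an MP array left out.

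Measures of RNA quality and labelling come from control probe sets, as deposited and on the log2 scale. A transcript read more strongly at its 3′ end than at its 5′ end gives a high ratio, as partly degraded or repeatedly amplified RNA is known to do. The GAPDH ratio read 4.79, 3.34, 4.07, 3.43 and 3.50 on muscle SP arrays 1 to 5 and lay between 1.88 and 3.44 in muscle MP. It read 3.22, 2.94, 4.02, 4.19 and 4.23 on bone marrow SP arrays and lay between 1.49 and 3.31 in bone marrow MP. The level of the ratio was thus higher in SP, by 1.16 in muscle (exact permutation p = 0.0238, adjusted p = 0.0408 over 12 control comparisons) and by 1.05 in bone marrow (p = 0.0397, adjusted p = 0.0596). The spread of the ratio was about alike, with SDs of 0.61 and 0.62 in muscle and 0.60 and 0.72 in bone marrow. The probe set of the B1 repeat, a short element copied throughout the mouse genome, was highest on array 1 of both SP groups, at 15.91 in muscle and 15.81 in bone marrow. All 5 SP arrays lay above all 5 MP arrays for it in both tissues (exact p = 0.00794, adjusted p = 0.0191 in each). The actin ratio was also higher in SP, by 1.08 in muscle and 1.09 in bone marrow (exact test, adjusted p = 0.0318 and 0.0191). The B2 repeat and the spiked-in controls were higher in muscle SP (exact test, adjusted p = 0.0191 for both) and did not pass in bone marrow (adjusted p = 0.0952 and 0.114). Neither did 18S rRNA in either tissue (exact p = 0.913 and 0.468).

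Over the 10 SP arrays, taken as deviations from their own group means, the GAPDH ratio and the beta-actin ratio had r = 0.71 (permutation p = 0.0187, adjusted p = 0.0561 over 3 relations) and rho = 0.82 (p = 0.00594, adjusted p = 0.0178). Without muscle SP 1 and bone marrow SP 2, the arrays farthest from the median, r was 0.68. The GAPDH ratio and the array distance had r = 0.58 (p = 0.0815, adjusted p = 0.122) and rho = 0.47 (p = 0.182, adjusted p = 0.264), and r was 0.20 without those arrays. The ratio and the mean of the spiked-in controls had r = 0.33 (p = 0.35, adjusted p = 0.35) and rho = 0.39 (p = 0.264, adjusted p = 0.264). Each tissue alone holds 5 SP arrays, too few for a correlation to be given, and the tissues differed. The muscle SP arrays had the same order on both measures, array 1 highest, then 3, 5, 4 and 2. The bone marrow SP arrays did not: array 1 had the largest distance and the fourth highest ratio, and array 3, with a ratio of 4.02, had the smallest distance. With the GAPDH ratio as a covariate, the summed squares within a group were 15.6% lower in muscle SP, 11.6% in muscle MP, 2.73% in bone marrow SP and 13.4% in bone marrow MP. The root mean square residual per array was then larger in SP by 0.137 in muscle and 0.150 in bone marrow, each with an exact p of 0.00794. The part of RNA quality in single genes was not tested beyond this covariate.

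Single probe sets were tested with limma on the absolute deviation of each array from its group mean, a measure of spread per array. In muscle 162 of 10310 probe sets (1.57%) had the larger spread in SP at an adjusted p under 0.05 and 26 (0.252%) in MP. In bone marrow 198 (1.92%) had it in SP and 55 (0.533%) in MP. At an unadjusted p under 0.05 the counts were 1316 and 191 in muscle and 1505 and 334 in bone marrow. These calls are best read as a ranking: with deviations from the group median limma called 0 probe sets in either tissue, against 285 and 396 larger in SP at an unadjusted p under 0.05. An F test of the variances called 51 and 38 larger in SP, and limma on only the groups compared called 56 and 13. Without muscle SP 1 and bone marrow SP 1 the counts larger in SP were 279 and 315, and without arrays 4 and 5 of both SP groups the muscle count was 499. No array was at the floor for 84 of the 162 and for 76 of the 198. The quieter MP group was at the floor throughout for 25 and 47, where its spread could not be seen. In both tissues 2 probe sets were called larger in SP. They were 1.23% of the muscle calls, beside 1.92% of all probe sets called in bone marrow. They were 1.01% of the bone marrow calls, beside 1.57% of all probe sets called in muscle. The overlap was thus near the share over all probe sets. The one with a single gene symbol belongs to Cfb, which encodes complement factor B. Other probe sets of the called genes, 48 in muscle and 85 in bone marrow, had the larger SP variance in 83.3% and 68.2%, beside 70.6% and 68.5% of all probe sets.

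Of the 8 genes with the largest SD in muscle SP, Ngp, S100a8, S100a9 and Camp encode granule proteins of neutrophils. Lyz2 encodes a lysozyme of myeloid cells, Ccl5 a chemokine of cytotoxic lymphocytes and Laptm5 a lysosomal protein of blood cells. The remaining one, Ackr1, is a chemokine receptor of venous endothelium and red cells. The gene lists below are described by counts, to be read against all probe sets, of which 70.6% had the larger variance in SP and 1.57% were called in muscle, and 68.5% and 1.92% in bone marrow.

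**Figure D3:**
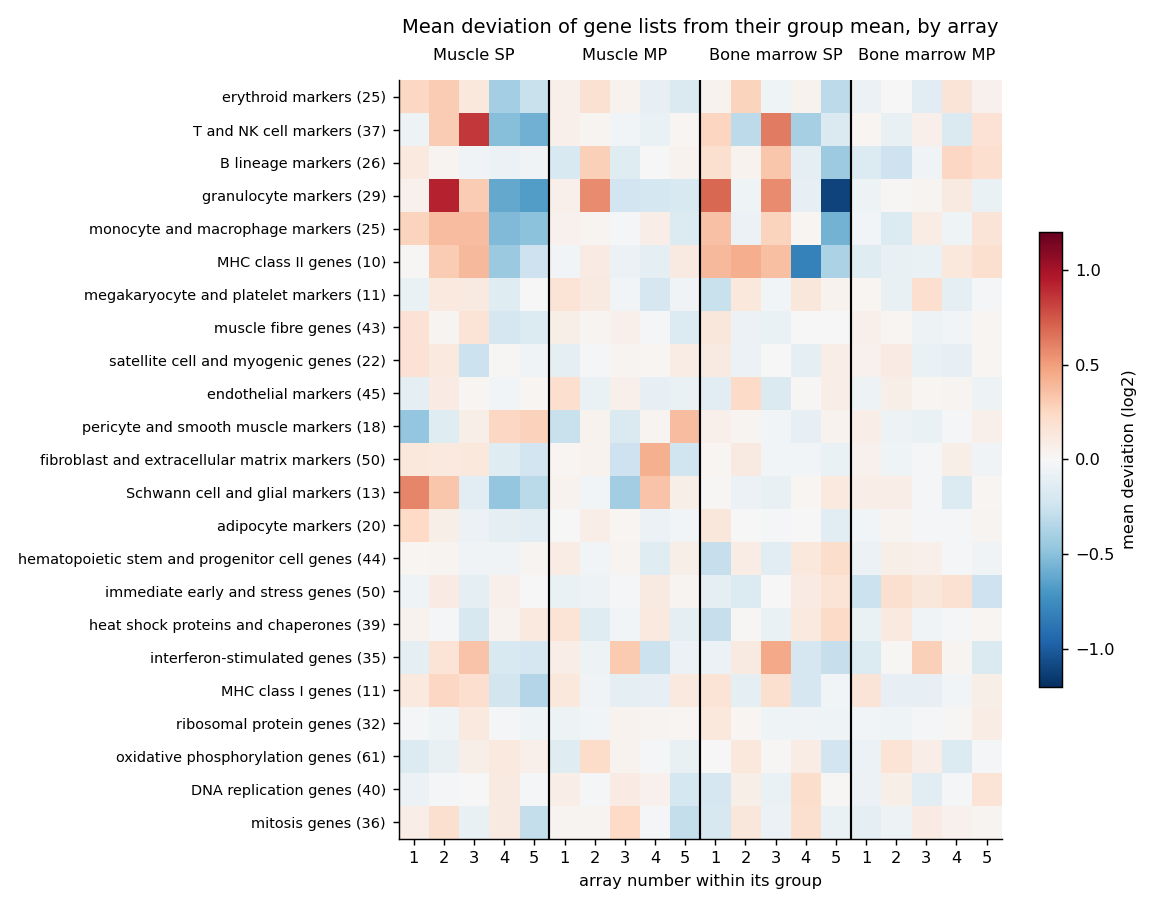
Mean deviation of each gene list from its own group mean (colour, log2) on each of the 20 arrays (horizontal axis, array number within its group), with the number of genes tested in brackets. The strongest colours are in the SP groups, at 0.92 for granulocyte markers on muscle SP 2, 0.85 for T and NK cell markers on muscle SP 3 and -1.11 for granulocyte markers on bone marrow SP 5.

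In muscle, 31 of 37 T and NK cell markers tested had the larger variance in SP, and 10 were called (all probe sets, 1.57%). Their median SD was 0.69 in SP and 0.16 in MP, and the median log2 variance ratio was 2.53, beside 1.00 for all probe sets. No muscle array was at the floor for 13 of the 37, and 9 of those 13 were wider in SP. Among all probe sets the same counts were 7705 and 5586. The floor, which flattens dim MP values, thus enters the contrast of this list. On muscle SP arrays 1 to 5 the list lay at -0.06, 0.30, 0.85, -0.51 and -0.58 around its group mean, and 24 of the 35 genes with any spread were highest on array 3. The genes also moved together: the array mean of the list accounted for 46.0% of its summed squares in SP and 4.24% in MP. The signal summed over the list ran from 42009 to 103738 in SP and from 35395 to 40248 in MP.

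Ccl5 read 13.81, 14.55, 15.43, 10.96 and 11.04 on muscle SP arrays 1 to 5 and between 7.30 and 8.30 in muscle MP. All SP arrays lay above all MP arrays, and within SP arrays 4 and 5 lay well below the others. The mean absolute deviation was larger in SP by 1.48 ± 0.27 (SE; limma, adjusted p = 0.00476). Gzma, a granule protease of cytotoxic lymphocytes, read 9.77, 10.23, 11.22, 8.48 and 8.31, with 4 of 5 MP arrays at the floor (adjusted p = 0.0089). Klra3, an NK cell receptor with near-identical relatives that its probe set may also detect, read 8.34, 10.51, 11.98, 8.59 and 8.42, against 7.82 to 8.63 in MP (adjusted p = 0.00565). Gzmb, a second granule protease, had the same high array 3, at 11.33, and the same low arrays 4 and 5, at 8.83 and 8.50, but did not pass (adjusted p = 0.0783). No muscle array, SP or MP, exceeded the floor for the T cell receptor chains Cd3e and Cd3g. Klrd1, an NK cell receptor chain, lay between 8.20 and 10.79 in muscle SP and was at the floor in muscle MP.

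Granulocyte markers peaked on another array. Their deviations on muscle SP arrays 1 to 5 were 0.05, 0.92, 0.30, -0.61 and -0.67, and 13 of the 23 genes with spread were highest on array 2. Of 29 tested, 17 (58.6%, beside 70.6% of all probe sets) had the larger variance in SP and 6 in MP. Another 6 never exceeded the floor in muscle and could be wider in neither group, which lowers the share. No array was at the floor for 11, and 9 of those were wider in SP, beside 5586 of 7705 probe sets. Limma called 0, with 9 larger in SP at an unadjusted p under 0.05. S100a9, a calcium-binding protein abundant in neutrophils, read 9.96, 12.57, 11.25, 8.03 and 6.92 in muscle SP and 7.53, 9.91, 7.51, 8.33 and 7.56 in muscle MP. Array 2 was the highest of both groups, so the MP group was also wide (SD 2.30 against 1.03, adjusted p = 0.162). Ngp, a neutrophil granule protein, read 12.44, 13.87, 11.60, 6.71 and 6.71, against 8.94, 11.14, 6.71, 6.71 and 6.71 in MP, again with array 2 highest in both and arrays 4 and 5 at the floor (adjusted p = 0.108). The summed signal of the list ran from 38177 to 98239 in muscle SP and from 36780 to 52720 in muscle MP.

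For some monocyte and macrophage markers the contrast between the groups was of another kind, since the MP arrays were mostly higher and closer together. Lyz2 read 9.20, 12.09, 11.09, 6.71 and 6.71 on muscle SP arrays 1 to 5 and 11.81, 11.90, 12.14, 12.27 and 12.12 in muscle MP. The SP arrays ran from the floor up to the MP range, while the MP arrays stayed close together (SD 2.46 and 0.19, adjusted p = 0.0096). Ctss, a lysosomal protease of antigen-presenting cells, read 12.34, 12.22, 11.85, 8.27 and 9.21 against 13.19 to 14.05 (adjusted p = 0.00025). Without arrays 4 and 5 of both SP groups the Ctss difference was -0.0395 (adjusted p = 0.909). Tyrobp, a signalling adaptor of myeloid and NK cells, read 9.48, 10.75, 11.55, 7.37 and 7.80 against 8.93 to 10.05 (adjusted p = 0.0405). Of 25 markers, 19 (76%) had the larger variance in SP, 4 were called, and the list lay at 0.27, 0.37, 0.37, -0.53 and -0.49. Of its defining markers, Cd68 lay between 9.23 and 9.97 in muscle SP and between 10.09 and 10.94 in MP, and Csf1r between 8.27 and 9.49 against 10.24 to 11.20. Adgre1 was at the floor on all 5 SP arrays, where no spread could be seen. The MHC class II genes, which present antigen on macrophages, dendritic and B cells, had the larger SP variance in 9 of 10 (90%). H2-Ab1 was the 1 called, at 8.45, 9.06, 8.46, 6.71 and 7.42 against 10.33 to 10.73 (adjusted p = 0.0283).

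Cytip, which encodes an adaptor that binds cytohesin in blood cells, had the largest variance ratio among the muscle calls whose means lay at least 1 unit above the floor in both groups. It read 11.13, 11.70, 11.51, 9.41 and 9.29 in muscle SP and 10.26, 10.37, 10.27, 10.34 and 10.22 in muscle MP. The MP values lay in the gap between SP arrays 1 to 3 and SP arrays 4 and 5, so the means were close while the SP variance was 350 times the MP variance (adjusted p = 9.11e-05). Lilr4b, an inhibitory receptor of myeloid cells, had the same low arrays 4 and 5, at 11.77, 11.76, 12.55, 9.53 and 8.40 (adjusted p = 0.0037). Laptm5 did too, at 11.32, 11.47, 12.63, 9.15 and 7.31 (adjusted p = 0.00694).

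**Figure D4:**
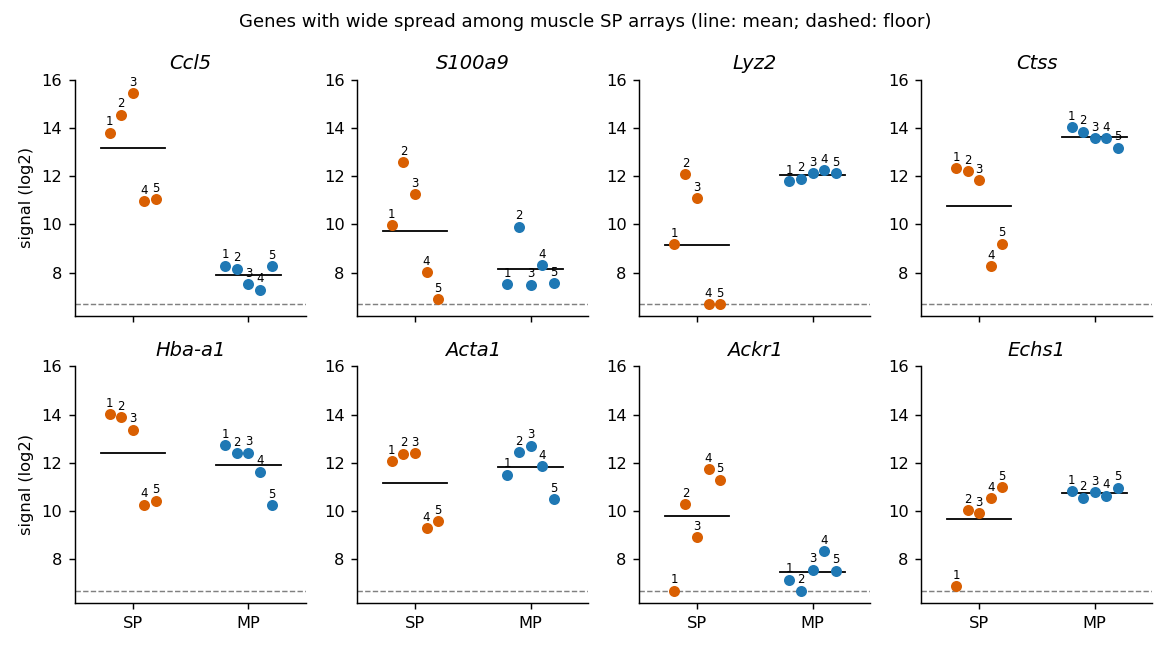
Log2 signal (vertical axis) of 8 genes on the 5 muscle SP arrays (orange) and the 5 muscle MP arrays (blue); digits are array numbers, black lines are means, and the dashed line is the floor of 6.71. Arrays 4 and 5 are the lowest SP arrays for Ccl5, S100a9, Lyz2, Ctss, Hba-a1 and Acta1 and the highest for Ackr1 and Echs1.

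Several red cell genes had the same low arrays in muscle SP, while the erythroid list as a whole was near the background. Hba-a1, an alpha globin gene whose close copy the probes may also detect, read 14.04, 13.91, 13.38, 10.27 and 10.44 in muscle SP and 12.74, 12.42, 12.43, 11.64 and 10.26 in muscle MP. Arrays 4 and 5 were well below the other SP arrays, and MP array 5 was as low (larger by 0.99 ± 0.25 in SP, adjusted p = 0.0403). Alas2, the first enzyme of haem synthesis in red cells, read 10.89, 10.75, 9.87, 7.23 and 7.44 (adjusted p = 0.167), and Hbb-b2, a beta globin gene, 13.03, 12.36, 11.61, 9.87 and 9.65 (adjusted p = 0.206). Of 25 erythroid markers, 18 (72%, beside 70.6% of all probe sets) had the larger variance in SP and Hba-a1 was the 1 called. The defining marker Slc4a1, the anion exchanger of red cells, lay between 7.21 and 8.09 in SP and between 6.71 and 8.20 in MP. The summed signal of the list ran from 15729 to 50046 in muscle SP and from 19627 to 28449 in muscle MP. Without arrays 4 and 5 of both SP groups the Hba-a1 difference was -0.523 (adjusted p = 0.191).

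Of 43 muscle fibre genes, 37 (86%) had the larger variance in SP and 4 were called, but they did not move as a block: the array mean accounted for 5.67% of their summed squares in SP and 4.23% in MP. Acta1, the actin of skeletal muscle fibres, read 12.07, 12.39, 12.41, 9.31 and 9.59 in muscle SP and 11.52, 12.44, 12.72, 11.88 and 10.51 in muscle MP. SP arrays 4 and 5 were lowest, and MP array 5 was the lowest of its group (adjusted p = 0.0451). Tnnc2, a troponin of fast fibres, read 12.94, 12.52, 12.02, 9.37 and 9.67 (adjusted p = 0.0832), and Tnnt3, another fast troponin, 8.60, 8.82, 9.37, 6.71 and 7.51 (adjusted p = 0.295). Atp2a2, the calcium pump of slow fibres, heart and smooth muscle, ran the other way at 10.39, 10.43, 10.32, 12.70 and 12.78, against 10.75 to 11.65 in MP (adjusted p = 0.0372). Without arrays 4 and 5 of both SP groups the differences of Acta1 and Atp2a2 were -0.539 and -0.217. The smooth muscle myosin Myh11 was likewise highest on arrays 4 and 5, at 11.82, 12.02, 11.87, 14.41 and 14.13, but was also wide in MP, from 11.33 to 13.72 (adjusted p = 0.19).

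Endothelial genes did not show a shared shift in muscle SP. Of 45 tested, 31 (68.9%, beside 70.6% of all probe sets) had the larger variance in SP and 3 were called, and the array mean accounted for 1.86% of their summed squares. Vwf, the clotting factor carrier of endothelium, read 12.96, 14.06, 14.14, 15.56 and 15.15, highest on the arrays where the leukocyte genes were lowest (adjusted p = 0.0819). Ackr1 read 6.71, 10.29, 8.92, 11.74 and 11.31 against 6.71 to 8.35 in MP, with array 1 at the floor and arrays 4 and 5 highest (adjusted p = 0.0529). Schwann cell and glial markers were highest on muscle SP array 1, at a mean deviation of 0.59, and lowest on array 4, at -0.46. They also moved together in muscle MP, where the deviations ran from -0.42 to 0.34. The array mean accounted for 31.2% of their summed squares in SP and 30.2% in MP. Gpm6b, a membrane protein of glia also listed for satellite cells, read 10.95, 10.57, 7.89, 7.75 and 8.94 in SP and 11.69 to 13.01 in MP (adjusted p = 0.0209). Sox2, a transcription factor of neural and glial precursors, read 10.41, 9.17, 7.56, 7.87 and 6.71 (adjusted p = 0.251).

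In a principal component analysis of muscle SP, arrays 4 and 5 had the lowest weights on both of the first 2 components. The largest weight was on array 1 for the first component and on array 3 for the second. The first component held 45.6% of the variance, with weights of 0.86, 0.01, -0.18, -0.31 and -0.38 on arrays 1 to 5. The second held 33.1%, with weights of -0.18, 0.27, 0.74, -0.38 and -0.45. The genes farthest to the array 1 end of the first component were Ngp, Camp, Sox2, Hba-a1, Alas2, Fbln1, Ctss and Hbb-b2. Most of these are neutrophil, red cell or other blood cell genes described above. At the opposite end stood Ackr1, Gpcpd1, Echs1, Arid1a, Cherp, Ifnar1, Eif2b5 and Sphk1. Echs1, a mitochondrial enzyme of fatty acid oxidation, read 6.91, 10.04, 9.91, 10.54 and 10.99, against 10.56 to 10.98 in MP (adjusted p = 0.166). Ifnar1, a chain of the type I interferon receptor, read 6.71, 10.08, 10.50, 10.08 and 9.49 (adjusted p = 0.19), and Arid1a, a chromatin remodelling subunit, 6.71, 10.44, 9.38, 10.73 and 10.36 (adjusted p = 0.198). A single low array in 5 gave large variance ratios for these genes, 96.5 for Echs1, without a call. Muscle SP 1 also had the highest GAPDH and actin 3′ to 5′ ratios of its group, 4.79 and 2.99, and the highest B1 repeat signal.

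Oxidative phosphorylation genes gave no such contrast in muscle. Of 61 tested, 32 had the larger variance in SP, the median log2 ratio was 0.11 and limma called 0, with 7 larger in SP at an unadjusted p under 0.05. B lineage markers were wider in MP in 15 of 26. Ribosomal protein genes had the larger SP variance in 24 of 32 with a median SD of 0.32 against 0.21, but 15 of 32 without muscle SP 1.

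In bone marrow the granulocyte markers were the widest list. Of 29 tested, 26 had the larger variance in SP and 4 were called (all probe sets, 1.92%), with a median SD of 0.89 against 0.32 and a median log2 variance ratio of 3.48, beside 0.94 for all probe sets. On bone marrow SP arrays 1 to 5 the list lay at 0.69, -0.05, 0.57, -0.10 and -1.11, and 20 of 28 genes with a spread were lowest on array 5. The array mean accounted for 49.1% of the summed squares in SP and 4.65% in MP. The summed signal ran from 153801 to 445359 in SP and from 732933 to 858727 in MP, so every SP array lay below the MP range. Of the defining markers, Mpo, the peroxidase of granulocyte precursors, ran from 13.40 to 13.71 in SP and from 13.40 to 14.85 in MP. S100a8 and S100a9 ran from 14.08 to 15.65 and from 13.56 to 14.94 in SP, against 16.20 to 16.60 and 15.24 to 16.17 in MP.

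Mmp8, a collagenase of neutrophil granules, read 13.54, 11.89, 13.11, 11.94 and 7.42 on bone marrow SP arrays 1 to 5 and 14.73 to 15.36 in bone marrow MP. Array 5 lay far below the other SP arrays (SD 2.44 and 0.27, adjusted p = 0.089). Prg2, the major basic protein of eosinophils, read 10.42, 6.71, 9.84, 6.71 and 6.71 against 11.89 to 13.14, with arrays 1 and 3 well above the floor and the other 3 at it (larger by 1.38 ± 0.17 in SP, adjusted p = 0.00015). Cybb, a subunit of the phagocyte oxidase, read 10.53, 8.04, 8.99, 7.65 and 6.71 against 11.72 to 12.54 (adjusted p = 0.0541), and Mmp9, a gelatinase, 13.11, 11.85, 12.93, 12.19 and 9.51 (adjusted p = 0.287). Arrays 1 and 3 were the highest and array 5 the lowest for each of these except Prg2, where 3 arrays tied.

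**Figure D5:**
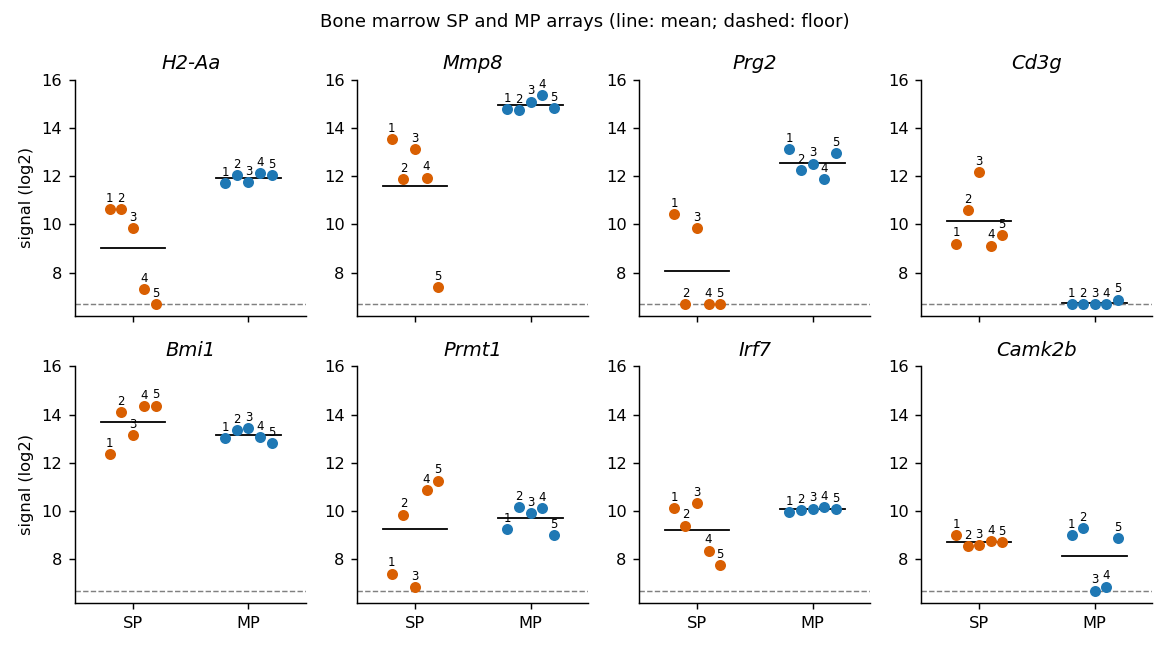
Log2 signal (vertical axis) of 8 genes on the 5 bone marrow SP arrays (orange) and the 5 bone marrow MP arrays (blue); digits are array numbers, black lines are means, and the dashed line is the floor of 6.71. H2-Aa, Mmp8 and Prg2 are spread in SP and close together in MP, while Camk2b is close together in SP (8.55 to 9.01) and spread in MP (6.71 to 9.31).

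MHC class II genes had the larger bone marrow SP variance in 9 of 10 (90%), with list deviations of 0.39, 0.44, 0.36, -0.81 and -0.38. H2-Aa, a class II alpha chain, read 10.64, 10.63, 9.86, 7.33 and 6.71 in SP and 11.70, 12.05, 11.77, 12.12 and 12.05 in MP. Arrays 4 and 5 were far below the other SP arrays, and all SP arrays lay below MP (larger by 1.62 ± 0.19, adjusted p = 0.00014). H2-Ab1, its beta chain partner, had the same low arrays, at 9.23, 9.56, 9.44, 7.57 and 7.65 (adjusted p = 0.0705). Without arrays 4 and 5 of both SP groups, 4 of 10 class II genes had the larger SP variance. Among B lineage markers, 16 of 26 (61.5%, below the 68.5% of all probe sets) had it and 2 were called. Spib, a transcription factor of B and dendritic cells, read 9.63, 8.72, 9.50, 7.72 and 6.71 (adjusted p = 0.0349), and Vpreb3, a gene of B cell precursors, 6.97, 8.03, 9.03, 8.76 and 6.71 (adjusted p = 0.0172).

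T and NK cell markers had the larger variance in bone marrow SP in 29 of 37 (78.4%), and 2 were called. No bone marrow array was at the floor for 21, and 15 of those were wider in SP, beside 5378 of 7516 probe sets. Their deviations were 0.26, -0.31, 0.62, -0.40 and -0.17, with 18 of 37 highest on array 3 and 15 on array 1. Cd3g, a chain of the T cell receptor complex, read 9.21, 10.59, 12.16, 9.12 and 9.56 on bone marrow SP arrays 1 to 5, and 4 of 5 MP arrays were at the floor (adjusted p = 0.0101). All SP arrays were above all MP arrays, and array 3 was the highest. Cd5, a T cell surface receptor, read 9.47, 8.62, 9.95, 7.49 and 6.96 (adjusted p = 0.0592). In contrast to muscle, Ccl5 was close together in bone marrow SP, at 15.84, 15.44, 15.88, 15.07 and 15.25.

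Hematopoietic stem and progenitor cell genes took the opposite course to the granulocyte genes on arrays 1 and 5. Of 44 tested, 34 (77.3%) had the larger variance in SP and 5 were called. The list lay at -0.28, 0.09, -0.14, 0.13 and 0.21, and 20 of 44 were lowest on array 1. Bmi1, a Polycomb protein needed for stem cell self-renewal, read 12.37, 14.10, 13.17, 14.37 and 14.38 in SP and 12.83 to 13.43 in MP, with SP arrays 1 and 3 lower than the other 3 (adjusted p = 0.0415). Vwf, which marks a platelet-biased subset of mouse stem cells, read 8.97, 10.89, 9.20, 11.39 and 11.12 (adjusted p = 0.0326). Abcg2 followed the same order (values above, adjusted p = 0.0697). Kit, the stem cell factor receptor, did not vary in this way and lay between 11.25 and 11.60. Cavin2, a protein of caveolae, read 7.36, 10.95, 8.91, 10.34 and 10.85 against 6.71 to 7.11 in MP (adjusted p = 0.00479).

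The first component of the bone marrow SP arrays held 42.7% of the variance, with a weight of 0.75 on array 1 and of -0.45 and -0.44 on arrays 4 and 5. The genes farthest to the array 1 end were Mmp8, Prg2, H2-Aa and Cybb. At the end of arrays 4 and 5 stood Prmt1, Srsf10, Brd1, Cavin2, Sfpq, Haus6, Otud4 and Cpeb2. Prmt1, an arginine methyltransferase of RNA-binding proteins, read 7.41, 9.86, 6.87, 10.89 and 11.27 in SP and 9.02 to 10.18 in MP (adjusted p = 0.0309). The splicing factors Srsf10 and Sfpq read 6.71, 8.58, 8.09, 10.06 and 10.27, and 7.25, 9.16, 8.28, 10.44 and 10.30 (adjusted p = 0.0559 and 0.121). Arrays 1 and 3 were the lowest for these 3 genes. The GAPDH ratios of arrays 1 to 5 were 3.22, 2.94, 4.02, 4.19 and 4.23. The part of RNA quality in these genes was not tested beyond the covariate.

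Interferon-stimulated genes were highest on bone marrow SP array 3 in 20 of 34, at a list deviation of 0.45, and on muscle SP array 3 in 16 of 35, at 0.34. Array 3 was also the highest of the MP groups, at 0.31 in muscle and 0.29 in bone marrow. Irf7, the transcription factor that amplifies the interferon response, read 10.13, 9.40, 10.35, 8.37 and 7.76 in bone marrow SP and 9.97 to 10.16 in bone marrow MP (variance ratio 245, adjusted p = 0.0205). Mx1, an antiviral GTPase, read 7.77, 8.08, 9.86, 8.71 and 7.47 (adjusted p = 0.254), and Ifit1, another antiviral protein, 8.79, 9.90, 10.64, 8.35 and 9.58 (adjusted p = 0.965). Nothing in the labels says that equal array numbers mark a shared sort or day.

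Ribosomal protein genes were closer together in bone marrow SP than in MP, with 11 of 32 wider in SP, a median SD of 0.22 against 0.27 and a median log2 ratio of -0.39. This direction depended on the scaling: the count ran from 11 to 23 and the ratio from -0.39 to 1.46 over the quantile-normalized, deposited, median-scaled and GAPDH-adjusted values. Heat shock proteins and chaperones were wider in SP in 18 of 39, with a ratio from -0.15 to 0.51 over the same settings.

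Genes wider in MP were fewer, and most of their calls involved the floor: 24 of 26 in muscle and 40 of 55 in bone marrow had an SP array at the floor. Pitpnb, a phospholipid transfer protein, was the single such muscle gene whose mean was at least 1 unit above the floor in both groups. It read 8.63, 8.89, 8.57, 8.95 and 8.87 in SP and 8.61, 7.53, 9.39, 8.91 and 6.78 in MP (adjusted p = 0.0441). In bone marrow Camk2b, a calcium-dependent kinase, read 9.01, 8.55, 8.61, 8.77 and 8.73 in SP and 9.01, 9.31, 6.71, 6.88 and 8.90 in MP (adjusted p = 0.00598). MP arrays 3 and 4 were at or near the floor. Gata4, a transcription factor of heart and endoderm, ran from 9.69 to 10.49 in SP and from 7.18 to 10.55 in MP (adjusted p = 0.0443), and Nr1i3, a nuclear receptor of liver, from 9.54 to 9.91 and from 8.49 to 10.27 (adjusted p = 0.0195).

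The difference between the tissues was tested directly. The SP minus MP spread was larger in muscle for 48 of 10310 probe sets (0.466%) and larger in bone marrow for 33 (0.32%), and 605 and 551 had an unadjusted p under 0.05. Ctss, on the macrophage list, was among them: its bone marrow SP arrays ran from 13.38 to 14.21 and its MP arrays from 14.37 to 15.46, while the muscle SP arrays spanned 8.27 to 12.34 (adjusted p of the difference = 0.00945). Utp14a, a ribosome assembly factor, read 6.83, 7.28, 10.19, 10.02 and 9.47 in muscle SP against 9.25 to 9.47 in muscle MP (adjusted p = 0.000146), and its tissue difference had an adjusted p of 0.0105. Prg2 and Pea15a, a small regulator of cell death and growth signalling, had the larger difference in bone marrow (adjusted p = 0.00718 and 0.00913). All 10 muscle arrays were at the floor for Prg2, so no spread could be seen there.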

How the data were processed

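The deposited values are signal intensities on a linear scale, with each array scaled by the authors to a 2%-trimmed mean of 1501, as the deposited values themselves show. The sources used here do not give the software or the background correction. After 66 control probe sets were left out, 12422 remained for quantile normalization, a floor was set at the 25th percentile (105 signal units), log2 was taken, and the 10310 above this floor on at least 5 of 20 arrays were kept (9095 with a single symbol, 7295 genes). All arrays thereby share 1 distribution, and the floor hides the spread of dim genes. The number of arrays limits the precision.

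Spread was tested with limma 3.58.1 in R 4.3.3 on absolute deviations from the group mean, scaled for group size, over all 20 arrays, with Benjamini-Hochberg adjustment over all probe sets and a threshold of 0.05. Tested on simulated data, false calls exceeded the nominal level, so calls serve as a ranking. Array distances were compared by exact permutation, and relations by 100000 permutations. Figures used matplotlib 3.10.9 in Python 3.11.15.

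Members, gene lists and the naming rule were chosen with earlier results of these data known. Named genes were, per tissue, the 10 called genes with the highest and 5 with the lowest variance ratio among those with means at least 1 unit above the floor, the 8 with the largest SD in SP, the 8 at each end of component 1, up to 4 per list, and a preset set of marker genes; the text gives a choice of these. Cfb, Procr, Klrd1, Mpo, Cd68, Csf1r, Adgre1, Cdh5, Myf5, Calcr and Fgfr4 are named outside that rule, most as defining markers. The probe sets of Klra3, Gzma, Alas2, Tnnc2, Atp2a2, Vpreb3, Haus6, Mpo and Cd68 may cross-hybridise, as the suffixes of their names show. Those of Sox2, Arid1a, Cavin2, Fbln1, Gpcpd1, Brd1 and Otud4 carry other suffixes, and their specificity is also less sure. Whether equal replicate numbers mark paired samples was not tested. Same-number correlations of deviations between SP and MP were 0.07 to 0.21 in muscle, over 0.1 in 2 of 5 pairs. In bone marrow they were -0.14 to 0.21, over 0.1 in 1 of 5. Correlations between unequal numbers ran from -0.29 to 0.33 in muscle and from -0.21 to 0.18 in bone marrow. Across tissues the same-number correlations were 0.05 to 0.30 for SP, over 0.1 in 3 of 5, and -0.09 to 0.26 for MP, over 0.1 in 4 of 5. Those between unequal numbers ran from -0.37 to 0.33 for SP and from -0.25 to 0.20 for MP. No 2 arrays held identical values.

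Alternatives were the deposited or median-scaled values, a lower or higher floor (10th or 40th percentile), a pseudocount of 50, no filter or a strict one, the GAPDH ratio as covariate, squared deviations, deviations from the median, trend and robust options, the replicate block, an F test, only the groups compared, and each array left out.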

Additional observations from a re-analysis of the deposited data

Results flagged for a closer look

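The 149 sets of 5 array values checked were control measures in every group, and list deviations and named genes in the SP groups. In 7 sets, or 4.7%, 1 array lay far from the other 4. Chance gives about 1 in 20 for sets not chosen for their spread, but many genes here were, so the share tests nothing. Muscle SP 1 was such an array 4 times, with the highest B2 repeat signal (17.64) and B1 repeat signal (15.91) of its group and the lowest values of Echs1 (6.91) and Ifnar1 (6.71). Muscle SP 3 was the highest for the mean deviation of ribosomal protein genes, at 0.12. Bone marrow SP 5 was the lowest for Mmp8, at 7.42. Bone marrow SP 1 was the highest for Nr1i3, at 9.91.

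The SP minus MP difference in spread differed between the tissues, by limma with adjustment over all probe sets, for 8 of the genes named. It was larger in muscle for Ccl5 (adjusted p = 0.0321), Ctss (0.00945), Utp14a (0.0105) and Camk2b (0.00617), and larger in bone marrow for Pitpnb (0.0297), Prg2 (0.00718), Spib (0.0401) and Pea15a (0.00913). For Camk2b, muscle SP arrays 1 to 5 read 9.38, 9.43, 8.91, 6.71 and 6.83, and bone marrow MP was the wide group of its tissue. For Pitpnb the wide group was muscle MP. Pea15a read 6.71, 9.66, 9.95, 6.71 and 7.36 on bone marrow SP arrays 1 to 5, and 4 of 5 bone marrow MP arrays were at the floor.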

How the results depend on the processing

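Array distances kept their direction under every alternative run; leaving out 1 array gave 0.113 to 0.227 in muscle and 0.126 to 0.204 in bone marrow. Calls were less stable, and counts larger in SP and in MP are given in that order. Muscle and bone marrow counts were 89 and 7, and 68 and 12, with a pseudocount; 37 and 0, and 27 and 3, for probe sets above the floor on all arrays (735 and 67, and 878 and 122, at an unadjusted p under 0.05); 31 and 3, and 13 and 6, with squared deviations; 56 and 12, and 13 and 3, with only the groups compared; and 0 throughout, also between tissues, with deviations from the median (41 and 73 larger in MP, 92 and 103 between tissues, at an unadjusted p under 0.05). Without the filter, muscle MP had 45 and bone marrow 623 and 260. Trend and robust options gave 42 in muscle MP and 351 and 90 in bone marrow. The F test gave 51 in muscle SP and 38 and 14 in bone marrow. The deposited scaling gave 378 and 34 in bone marrow. The GAPDH covariate gave 14 and 28 in the MP groups. Tissue counts (larger in muscle, in bone marrow) were 17 and 10 with a pseudocount, 147 and 110 without the filter, 6 and 3 above the floor, 19 and 13 with the covariate, and 0 and 0 with squared deviations (409 and 374 at an unadjusted p under 0.05). Excluding array 1 of both SP groups gave 279 and 44 in muscle, 315 in bone marrow SP, and 99 and 80 between tissues. Excluding arrays 4 and 5 gave 499 in muscle SP and turned Acta1 (-0.539), Atp2a2 (-0.217), Ctss (-0.0395) and Hba-a1 (-0.523). Leaving out 1 array gave 89 (without muscle SP 5) to 331 (without muscle SP 2) and 13 to 34 in muscle, 97 (without bone marrow MP 1) to 498 (without bone marrow SP 2) and 40 to 73 in bone marrow, and 20 to 95 and 21 to 68 between tissues. With the replicate block the counts were 138 and 21, 180 and 46, and 39 and 29. Whether the numbers pair the arrays was not tested. Between SP and MP, 0 muscle arrays and 1 bone marrow array correlated best with their own number, against 2 SP and 3 MP arrays between tissues. Of 34 calls of named genes, every one was lost under some alternative, which was fixed in advance once deviations from the median called 0. Utp14a and Pea15a were lost under that alternative alone, and Cytip under 2 of 36. Gata4 was lost under 26 of 36 and Pitpnb under 25 of 36. The cause of these changes was not tested beyond what fewer probe sets or arrays bring by construction. Spread below the floor cannot be seen.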
